A study of Homo sapiens with 13 samples.

Results

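The 37 nuclear genes listed here are named as subunits of mitochondrial complex I, the NADH:ubiquinone oxidoreductase. They were taken by gene symbol from 14575 genes in the deposited isoform files. NDUFA4, now counted as a subunit of complex IV, is among them and in every value given for the 37. All 37 were found, with 828 distinct 3' ends of 211765 in all, and all 37 were among the 9494 genes with enough reads to test. They were measured by 3' READS, in which each read marks the 3' end of a polyadenylated RNA, in HEK293 Flp-in TREX cells, which derive from human embryonic kidney. The cells carried an integrated pcDNA5 plasmid that encodes the largest subunit of Pol II, Rpb1, with an Avitag. This Rpb1 was resistant to α-amanitin and was either wild-type or held the R749H change, which slows elongation. There were 5 wild-type and 4 R749H libraries. All 9 came from cells given doxycycline at 2 µg/ml, for 24 hr by the sample labels (the study's methods describe a shorter induction, with doxycycline kept on during the next step), and α-amanitin at 2.5 µg/ml for 42 hr, which blocks the endogenous Pol II. Each form of Rpb1 was carried by its own cell line, so an effect of the allele and a difference between the lines cannot be told apart.

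Complex I is the entry point of the respiratory chain. Its peripheral arm, which reaches into the mitochondrial matrix, takes electrons from NADH through a flavin and a chain of iron-sulfur clusters to ubiquinone, and its membrane arm pumps protons across the inner membrane. A small conserved set of core subunits does the chemistry, some of it encoded in mitochondrial DNA, while the many supernumerary subunits stabilise the complex and its assembly. The mRNAs of the nuclear genes are made by Pol II and polyadenylated like those of other genes, and because a read marks an mRNA 3' end, their levels are given without division by length. Reads whose terminal As could come from the genome had been dropped by the authors, so levels of different members may also differ by this loss, which was not tested. The 10 nt after the dominant 3' end held from 0 As (NDUFA13 and NDUFB10) to 7 (NDUFA1) among the members. These As were counted anywhere in the 10 nt, whereas the authors looked at those next to the end, so the counts do not measure the loss.

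Total reads within 5 kb of a stop codon ranged from 2479851 to 10135014 in the wild-type libraries and from 3863468 to 6475987 in the R749H libraries, and the members held 1.47 to 1.72% and 1.37 to 1.68% of them. R749H replicate 3 stood apart in having 41033 3' ends, of which 6.60% were single reads, against 30.045 to 36.19% in the other libraries. The 10 most abundant genes took 19.9 to 22.1% of the reads in wild-type and 23.4 to 25.6% in R749H libraries. Of the marker genes chosen for HEK293 cells, VIM, KRT8, KRT18 and INA were read in all 9 libraries, whereas NEFL and NEFH had no reads and NEFM and LHX1 had at most 0.403 reads per M. PAX2 was read at 1.61 to 4.33 reads per M in wild-type and at 0 to 0.772 in R749H libraries, which did not overlap. Markers of haematopoietic cells were each under 1 read per M in every library, those of fibroblasts reached at most 6.92 (PDGFRA) and those of hepatocytes at most 3.84 (APOA1). VIM itself fell in R749H cells, by 0.66 on the log2 scale (limma, adjusted p = 0.0194), and the part of VIM and PAX2 in the results was not tested.

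The 3' ends of the members' mRNAs lay close to their stop codons. The dominant 3' end, meaning the single position with the most reads over all 9 libraries, was at most 100 nt downstream of the stop codon in 18 of 37 members (48.6%), and in 7.75% of all genes tested. Its median distance was 104 nt for the members and 716 nt for all genes. In 28 members (75.7%) the 40 nt before this end held the canonical poly(A) signal AATAAA, in 7 (18.9%) they held ATTAAA but not AATAAA, and in 2 (5.41%), NDUFS1 and NDUFB10, only another listed hexamer (TATAAA or AGTAAA or AAGAAA or AATATA or AATACA or CATAAA or GATAAA or AATGAA or ACTAAA or AATAGA). Among all genes the same classes were 67.3%, 16.7% and 11.5%, with none of these hexamers in 4.48%. The search covered the strand of the transcript alone, and a match shows only that the letters are present.

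The sequences below are the last 30 nt before the 3' ends of the 8 members whose expression differed between the cell lines and, for NDUFA7 and NDUFB10, before their alternative ends, since the reads described further on were counted at these positions. They were read from the GRCh37 genome, in the direction of transcription, and the capitals mark the hexamer, which ended 12 to 19 nt before the 3' end. The number after each name is the distance of the 3' end from the stop codon, in nt along the genome.
NDUFV2 +55: ctagagaAATAAAatatggacttccaatct
NDUFV3 +78: gagtgcaaaAATAAAatccactcaagagtc
NDUFA2 +216: tataaaAATAAAactttattctgtctcatc
NDUFA6 +68: gagcacaAATAAActcactatacaatggtc
NDUFA7 +152: aaaaaAATAGAgacagagtctcaccatgtt
NDUFA7 +2739: agatcctgagAATAAAgcagtgagcaacag
NDUFA7 +2908: ctgccatATTAAAgaagatcacgaggcagt
NDUFA3 +57: cccacggctcccAATAAAaatgtgaaaacc
NDUFB1 +67: tctgagagaAATAAAaacatgaagaatctg
NDUFB10 +69: tgttgctgaaaTATAAAgccctgcaacctg
NDUFB10 +3596: ccacgtctttcaAATAAAgctgttttgtct
On the plus strand these windows were chr18:9134303-9134332 for NDUFV2, chr21:44329180-44329209 for NDUFV3, chr19:54610237-54610266 for NDUFA3, and chr16:2011947-2011976 and chr16:2015474-2015503 for the near and far ends of NDUFB10. On the minus strand they were chr5:140024956-140024985 for NDUFA2, chr22:42482119-42482148 for NDUFA6, chr14:92582470-92582499 for NDUFB1, and chr19:8376237-8376266, chr19:8373650-8373679 and chr19:8373481-8373510 for the 3 ends of NDUFA7. By GENCODE, all but 2 of these ends lay in, or within 24 nt of, an exon of the gene itself. The exceptions were the end of NDUFA7 at +2908, outside any annotated exon, and that of NDUFB10 at +3596, in the long noncoding RNA gene SNHG9. The window of NDUFA7 at +152 shows AATAGA, and an AATAAA begins upstream of it, within the 40 nt.

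**Figure D1:**
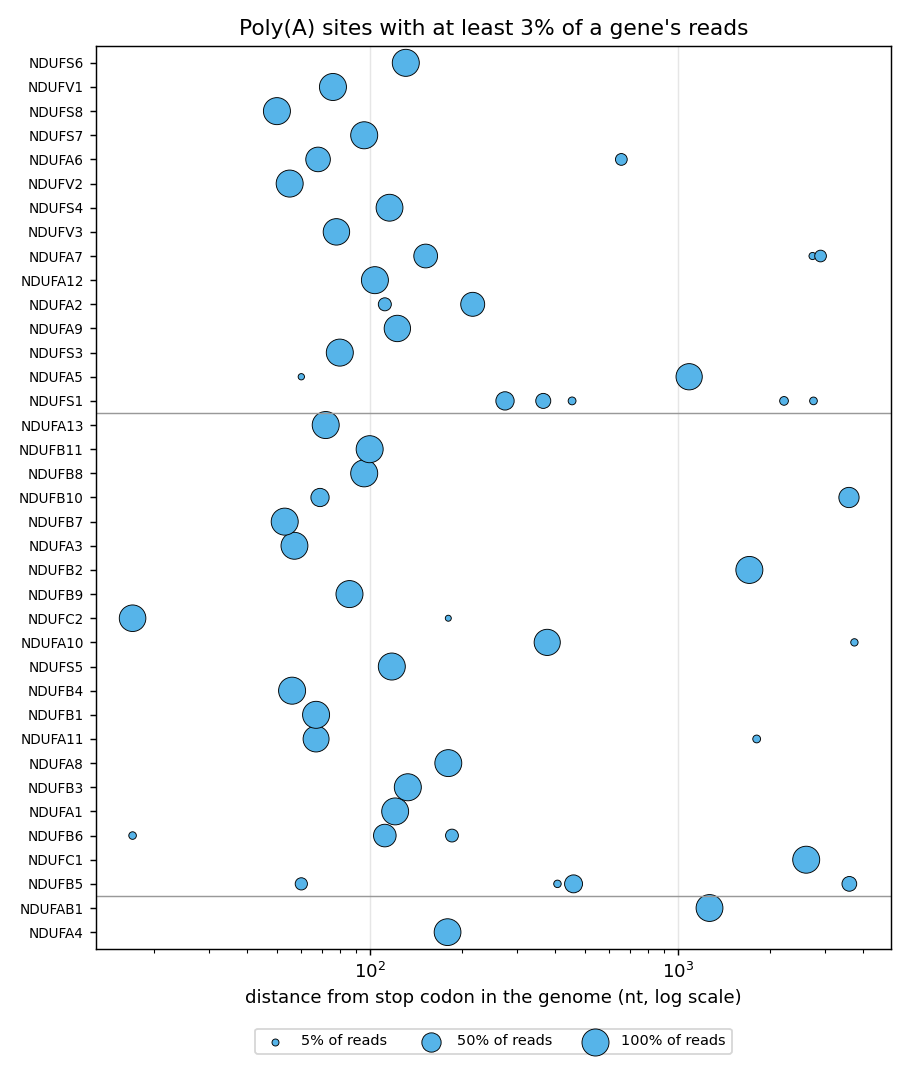
Poly(A) sites of the 37 members, with distance from the stop codon in the genome in nt on a log scale and circle area growing with the share of the gene's reads over all 9 libraries; 3' ends within 24 nt of each other form 1 site, and sites with at least 3% of the reads are drawn. Lines divide peripheral arm, membrane arm and other members. Most members have a single large circle near 100 nt, and NDUFB10 has circles at 69 and 3596 nt.

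The nearest dominant 3' ends were those of NDUFC2 at 17 nt, NDUFS8 at 50 nt and NDUFB7 at 53 nt. NDUFC2 is a membrane arm subunit, and its site at 17 nt took 96.6% of its reads. NDUFS8 carries iron-sulfur clusters of the peripheral arm, and NDUFB7 is a membrane arm subunit of the intermembrane space side. The most distant dominant ends were those of NDUFC1 at 2612 nt, NDUFB2 at 1708 nt and NDUFAB1 at 1268 nt, again over all 9 libraries, where these genomic distances can include introns. Taken in each cell line by itself, the dominant end was the same position for 34 of 37 members (91.9%), and for 88.4% of all genes tested. The exceptions were NDUFS1 and NDUFB5, with 341 and 200 reads in all, and NDUFB10, whose dominant end in R749H cells was that at +3596. The wild-type end of NDUFB5 likewise lay farther from the stop codon than that of NDUFC1. The members had a median of 3 major isoforms (those above 5% of the maximal isoform in both cell lines), as did all genes, and the dominant end held a median of 69.6% of a member's reads against 56.9% over all genes.

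Levels of the members spanned 782-fold in wild-type cells. NDUFS6, a zinc-binding accessory subunit of the peripheral arm, was the highest at 3229 ± 240 reads per M reads (rpm; SD, n = 5), followed by NDUFA13 at 2060 ± 436 and NDUFB11 at 2022 ± 399, both membrane arm subunits. NDUFA13 and NDUFB11 were closer to each other than their SDs, and their libraries overlapped. The lowest were NDUFB6 at 5.57 ± 3.43, NDUFC1 at 4.72 ± 1.04 and NDUFB5 at 4.13 ± 2.48 rpm, all in the membrane arm, and these 3 also overlapped. In R749H cells the same 3 stood at 9.48 ± 5.11, 6.998 ± 2.29 and 5.19 ± 1.37 rpm (SD, n = 4), within overlapping ranges. The 3 highest members read 3819 ± 785, 2047 ± 432 and 2844 ± 590 rpm in R749H cells. In all, 4 members were above 1000, 16 between 100 and 1000, 12 between 10 and 100 and 5 under 10 rpm in wild-type cells.

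**Figure D2:**
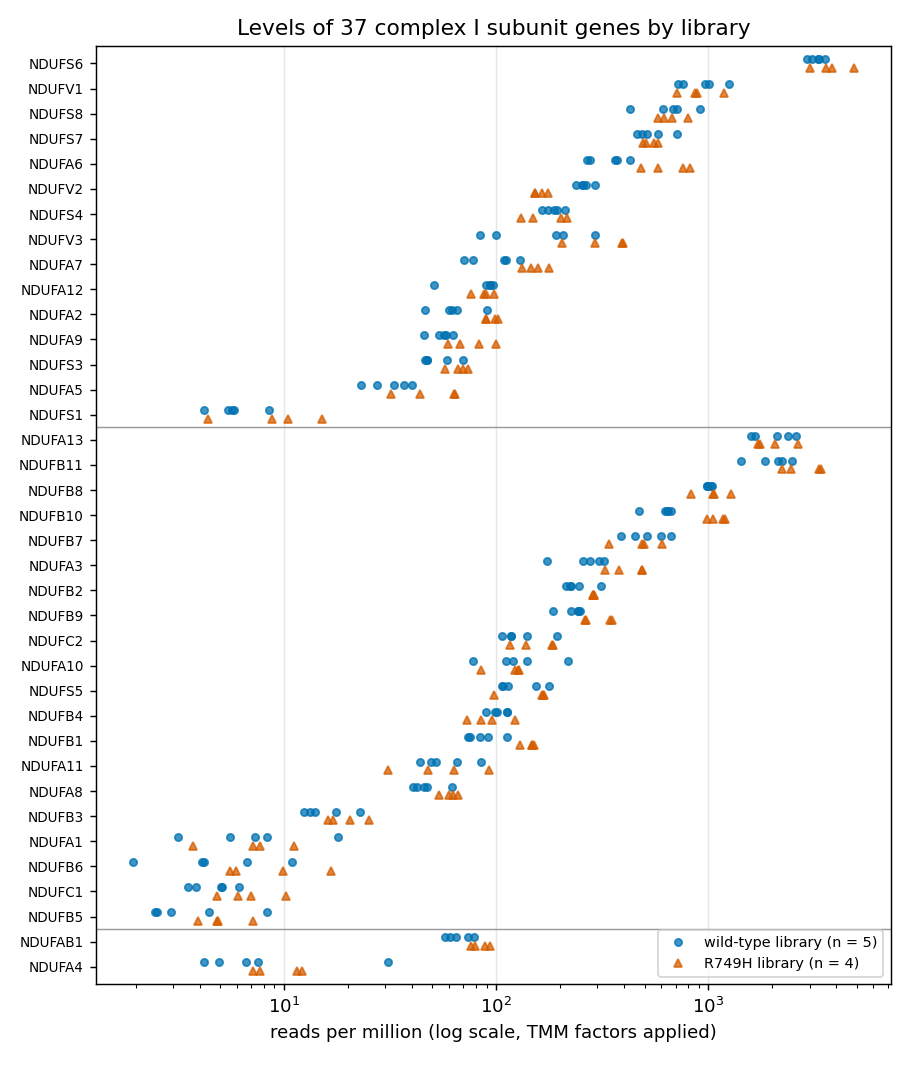
Reads per M (rpm) of each member in each library, on a log scale after TMM factors, with wild-type libraries as circles (n = 5) and R749H libraries as triangles (n = 4). Members are ordered by wild-type level within the peripheral arm, the membrane arm and the remaining 2; the R749H triangles of NDUFA6, NDUFA7, NDUFA3, NDUFB1, NDUFB9 and NDUFB10 lie above all their circles, and those of NDUFV2 below.

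In R749H cells 7 of the 37 members were higher and 1 was lower than in wild-type cells (limma, adjusted p under 0.05 over all genes tested), with 10.9% of all genes higher and 12.9% lower. The median log2 change was 0.31 over the members and -0.07 over all genes, and 27 members had a positive change, as did 45.8% of all genes. Every R749H library was above every wild-type library in 6 members (9.72% of all genes) and below in 1 (10.1% of all genes). These directions depend on the scaling: under the authors' scaling to total poly(A) reads alone the median of all genes was -0.41, 16 members had a positive change, NDUFB10 and NDUFA6 were the 2 members called higher, and NDUFV2, NDUFS4 and NDUFB4 were the 3 called lower. The 7 members named below as higher kept a positive change under that scaling. Over all genes, calls split into 431 higher and 2628 lower under that scaling and into 1038 and 1227 otherwise. Relative to the median of all genes, 31 members were higher under either scaling. In bulk RNA, fewer cells of a kind and less RNA per cell cannot be told apart.

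The peripheral arm had 15 listed members, of which 4 rose and 1 fell, where 10.9% of all genes rose and 12.9% fell, with a median log2 change of 0.33. The listed core subunits, among them those that hold the redox centres, had a median of 0.00, and 1 of the 6 passed the test. NDUFV1, the subunit that binds NADH and flavin, went from 941 ± 213 to 911 ± 196 rpm, and its log2 change of -0.04 ± 0.19 (SE) did not pass (limma, adjusted p = 0.899). NDUFS1, which holds several iron-sulfur clusters, was read at 5.91 ± 1.58 and 9.67 ± 4.44 rpm, and NDUFS3, NDUFS7 and NDUFS8 had log2 changes of 0.33, -0.03 and 0.03, none past the test.

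NDUFA6, an accessory subunit of the LYR family near the junction of the arms, was read at 277, 371, 268, 427 and 363 rpm in the wild-type libraries and at 483, 756, 580 and 819 in the R749H libraries. The groups did not overlap. Its log2 change was 0.94 ± 0.19 (SE), or 1.92-fold (limma, adjusted p = 0.0028). Its reads ended at +68 (82.4%) and +656 (17.5%), and the near site held 81.8 ± 1.72% of the reads in wild-type and 83.1 ± 3.57% in R749H cells.

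NDUFV3, a small subunit of the NADH-binding module, was read at 84.0, 192, 99.3, 205 and 291 rpm in wild-type and at 203, 394, 292 and 393 in R749H libraries. Its lowest R749H library lay below 2 of the wild-type libraries. With a log2 change of 0.98 ± 0.31 (limma, adjusted p = 0.0315) it passed, and without wild-type replicate 1 or 3 or R749H replicate 2 or 4 it no longer did (limma, adjusted p from 0.0672 to 0.0946).

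NDUFA2, a thioredoxin-like accessory subunit of the NADH module, was read at 46.2, 65.5, 61.5, 59.7 and 90.0 rpm in wild-type and at 89.5, 98.9, 89.7 and 102 in R749H libraries. Wild-type replicate 5 lay within the R749H range and the others lay below it. NDUFA2 rose by a log2 change of 0.59 ± 0.19 (limma, adjusted p = 0.0347), and it no longer passed without wild-type replicate 1, 2, 3 or 4 or R749H replicate 2 or 4 (limma, adjusted p from 0.0567 to 0.0811).

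NDUFA7, an accessory subunit of the peripheral arm, was read at 77.3, 129, 70.7, 111 and 108 rpm in wild-type and at 132, 146, 158 and 178 in R749H libraries. All R749H libraries were above all wild-type libraries, the lowest by little. Its log2 change of 0.66 ± 0.20 passed (limma, adjusted p = 0.0234), but not without wild-type replicate 3 or R749H replicate 4 (limma, adjusted p from 0.0640 to 0.0665).

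NDUFV2, a core subunit with an iron-sulfur cluster beside the flavin site, was the member that fell. It was read at 256, 237, 265, 252 and 291 rpm in wild-type and at 176, 152, 153 and 164 in R749H libraries. The R749H libraries lay below all wild-type libraries and within a narrow range. The log2 change was -0.69 ± 0.15 (limma, adjusted p = 0.00361). NDUFV2 lies on chromosome 18, where the median log2 change of 137 tested genes was -0.49, and that of the 26 tested genes within 5 Mb was -0.50. After the nearby genes were subtracted its log2 change was -0.16 (limma, adjusted p = 0.489).

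The other peripheral arm members, NDUFS4, NDUFS6, NDUFA5, NDUFA9 and NDUFA12, had log2 changes from -0.12 to 0.63 and did not pass. The largest of these was NDUFA5, at 32.0 ± 6.90 and 50.5 ± 15.6 rpm (limma, adjusted p = 0.0639). With the nearby genes subtracted it passed, at a log2 change of 1.02, as did NDUFAB1 at 0.69, while NDUFV3 and NDUFA2 no longer did, at 0.87 and 0.44.

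Of 20 members in the membrane arm 3 rose and none fell, beside the same 10.9% and 12.9% of all genes, so the share that rose was near the background. The median log2 change was 0.28. NDUFB10, an accessory subunit on the intermembrane space side, was read at 472, 648, 669, 640 and 623 rpm in wild-type and at 984, 1197, 1167 and 1047 in R749H libraries. The groups were far apart. The log2 change was 0.85 ± 0.16, or 1.81-fold (limma, adjusted p = 0.00128), but 55.3% of the reads that the files give to NDUFB10 ended in SNHG9.

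NDUFB1, a small single-span subunit, was read at 112, 83.5, 91.4, 75.1 and 73.3 rpm in wild-type and at 129, 151, 148 and 147 in R749H libraries. The groups did not overlap, and 3 of the R749H libraries lay within a narrow range. The log2 change was 0.74 ± 0.17 (limma, adjusted p = 0.00584).

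NDUFA3, also a small single-span subunit, was read at 173, 322, 278, 305 and 257 rpm in wild-type and at 326, 486, 381 and 488 in R749H libraries. The lowest R749H library was barely above the highest wild-type library. Its log2 change of 0.67 ± 0.20 passed (limma, adjusted p = 0.0223), but not without R749H replicate 2 or 4 (limma, adjusted p from 0.0635 to 0.0741).

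The other 17 membrane arm members did not pass. NDUFB9, a LYR family subunit, was read at 229 ± 25.7 and 306 ± 49.5 rpm with no overlap between the groups, and its log2 change of 0.41 ± 0.17 missed the threshold (limma, adjusted p = 0.0790). NDUFB11 had a log2 change of 0.49 ± 0.19 (limma, adjusted p = 0.0729). NDUFB6 had the largest unpassed change, 0.83 ± 0.44, at the few reads given above. NDUFA1, NDUFA10, NDUFA11, NDUFA13, NDUFB4 and NDUFB7 had negative log2 changes, from -0.15 to -0.01. The 2 remaining members are NDUFAB1, the mitochondrial acyl carrier protein, with a log2 change of 0.34 ± 0.17, and NDUFA4, now counted as a subunit of complex IV, with 0.23 ± 0.45. Pseudogenes named after them exist for 19 of the 37 members, NDUFV2, NDUFA3, NDUFB1 and NDUFB10 among them, and how reads that match more than 1 place were treated in human cells is not given in the sources used here, so their levels are uncertain to that extent.

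**Figure D3:**
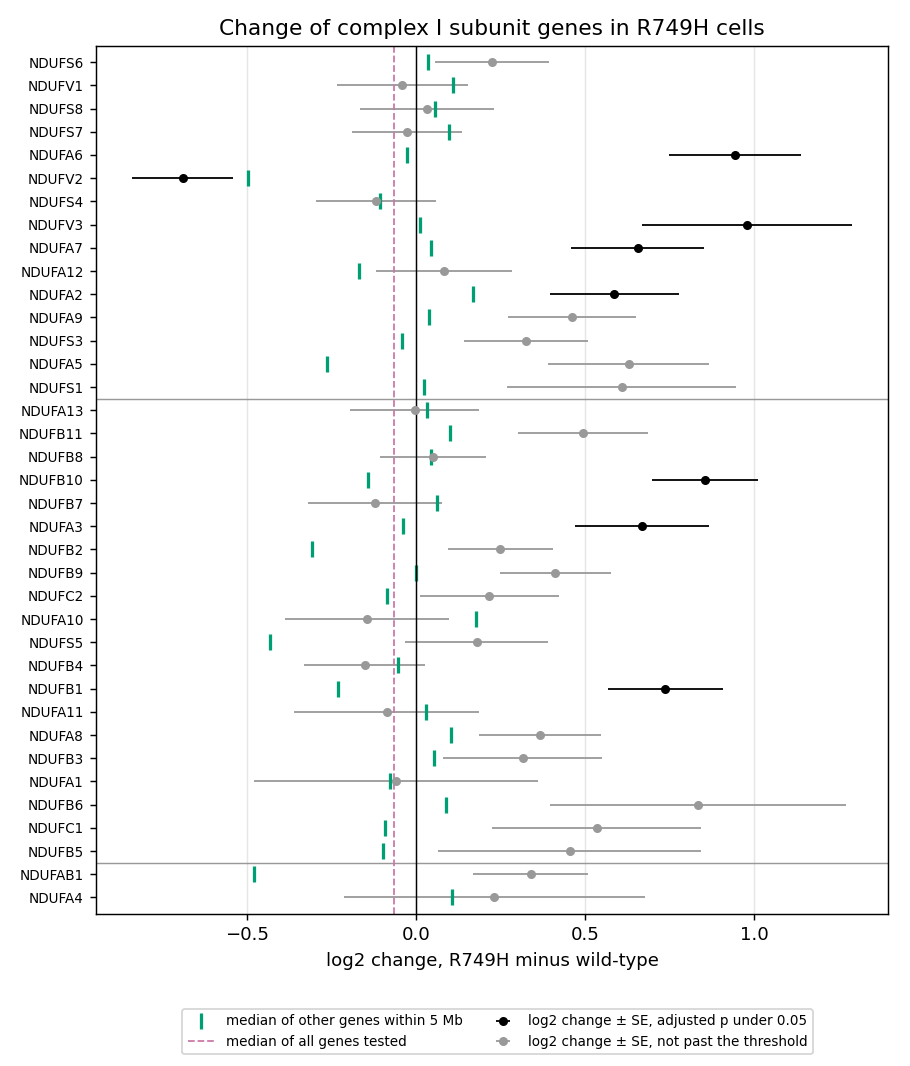
Log2 change in R749H against wild-type cells for each member (points, with SE as bars; black, adjusted p under 0.05 by limma; grey, not past), the median log2 change of the other tested genes within 5 Mb (green ticks) and of all genes tested (dashed line at -0.07). Members are ordered as in the plot of levels; NDUFV2 is the black point below 0, beside a green tick at -0.50, and the 7 black points above 0 run from 0.59 to 0.98.

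The near and far ends of NDUFB10 were then taken apart. At its own end, +69, NDUFB10 was read at 276, 310, 409, 303 and 223 rpm in wild-type and at 378, 524, 474 and 405 in R749H libraries, which overlapped. At the end in SNHG9 the values were 196, 339, 260, 337 and 400 in wild-type and 607, 673, 693 and 642 in R749H libraries, with a wide gap between the groups. The differences between the groups' mean log2 levels were 0.57 at the own end and 1.13 at the end in SNHG9, given without a test because the ends were set apart after their values were seen. Counted over exons of the gene alone, which leaves out the end in SNHG9, NDUFB10 had a log2 change of 0.56 (limma, adjusted p = 0.0344). That count was also chosen after the values were seen, so its p-value is no independent test of the own end. The share of reads at +69 was 50.1 ± 10.1% in wild-type and 40.4 ± 2.51% in R749H cells, a difference that did not pass (limma, adjusted p = 0.604).

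The reads downstream of each gene's median 3' end position were compared next, since the study concerns how the elongation rate of Pol II bears on the place of polyadenylation. Of 6663 genes tested 2 passed (0.03%), and of the 32 members tested none did (limma), with 4 at an unadjusted p under 0.05, where 9.55% of all genes were. NDUFS8, NDUFA9, NDUFA8, NDUFB7 and NDUFA4 were not tested, as each had 1 major isoform. Among 112 major isoforms of the 32 members, none of the shares passed (0% of 29201 isoforms did), and 6 had an unadjusted p under 0.05, against 5.98% of all. With isoforms within 24 nt joined into sites, 24 sites of 9 members were tested. None passed (0.0231% of 8663 sites did), and 5 had an unadjusted p under 0.05, against 11.1% of all. These sites were +152 and +2908 of NDUFA7, +67 and +1804 of NDUFA11, and +3606 of NDUFB5. The isoforms under 0.05 were all of NDUFA7 except that of NDUFAB1 at +1281. Shares within a gene depend on each other, so neither count is one of independent genes.

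NDUFA7 had the lowest unadjusted p of the members. The share of its reads downstream of +152 was 37.8, 34.9, 41.2, 37.9 and 38.7% in the wild-type libraries and 24.5, 18.8, 11.7 and 15.2% in the R749H libraries. The wild-type values were close together and all R749H values lay below them, the lowest being R749H replicate 3, which stood apart above. The log2 odds differed by -1.58 ± 0.27 (SE; limma, adjusted p = 0.169), and by -1.36 without that library. When only 3' ends in exons of the gene were counted the change was -0.21 (limma, adjusted p = 0.768). This count leaves out the end at +2908 and finds the median position anew from the remaining reads, so it does not compare the same division. The end at +2739, in an exon of the gene, held 4.31 ± 0.853% of the reads in wild-type and 1.78 ± 0.332% in R749H cells. All R749H libraries lay below there, and the difference did not pass (limma, adjusted p = 0.575).

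As levels, the ends of NDUFA7 within 200 nt of the stop codon were read at 51.0, 90.3, 45.6, 75.1 and 72.3 rpm in wild-type and at 108, 127, 151 and 161 in R749H libraries. Those beyond 2700 nt were read at 26.3, 38.5, 25.03, 36.3 and 35.8 in wild-type and at 24.6, 17.9, 6.14 and 16.9 in R749H libraries. The groups did not overlap at either, with R749H above at the near ends and below at the far ends, where R749H replicate 1 came close to the wild-type values. The differences between mean log2 levels were 1.06 at the near and -1.13 at the far ends, again without a test, since these ends too were set apart after their values were seen.

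NDUFA11, a membrane arm subunit, showed the opposite order. Downstream of +67 it had 7.55, 8.90, 10.8, 14.9 and 9.73% of its reads in wild-type and 16.2, 16.6, 19.0 and 15.1% in R749H libraries, with wild-type replicate 4 just below the R749H range. The log2 odds differed by 0.82 ± 0.25 (limma, adjusted p = 0.335), and by 0.04 when reads were divided in the middle of the span of its major isoforms. These lie at +63, +65 and +67, so that division counts the dominant end at +67 as downstream and does not set apart the site at +1804. At its site at +1804, 4.56 ± 2.08% of the reads ended in wild-type and 9.44 ± 0.867% in R749H cells (limma, adjusted p = 0.401). The remaining members with an unadjusted p under 0.05 were NDUFB1, whose downstream share was 0.602 ± 0.200% and 0.220 ± 0.229%, and NDUFB4, with 0.588 ± 0.356% and 0.0514 ± 0.103%.

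**Figure D4:**
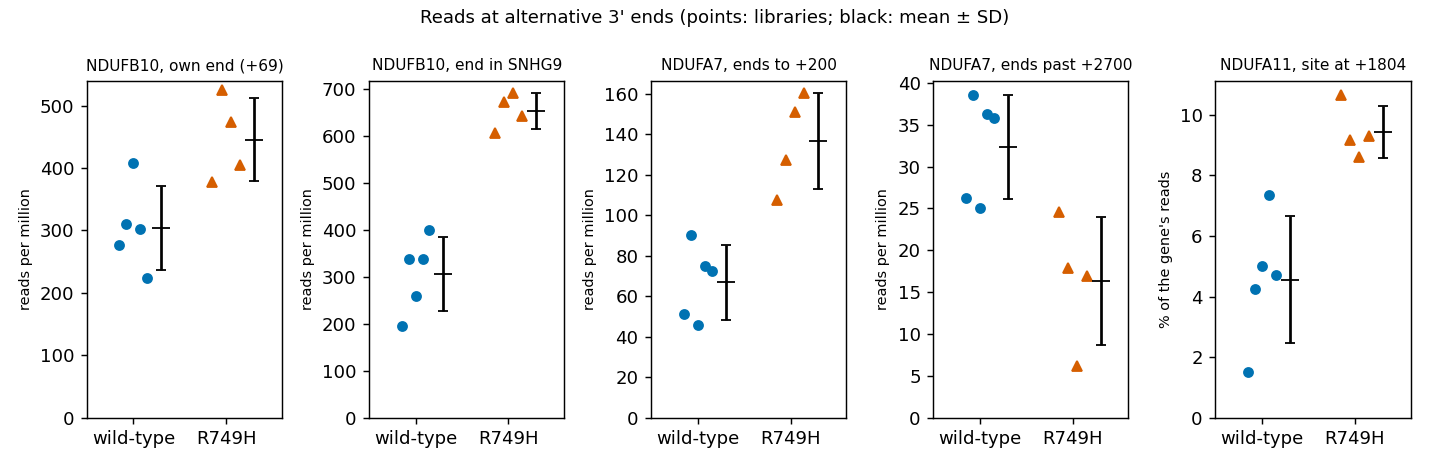
Reads per M (rpm) at the near and far ends of NDUFB10 and NDUFA7, and the percent of NDUFA11 reads at its site at +1804, in each wild-type (circles, n = 5) and R749H (triangles, n = 4) library, with mean ± SD in black. R749H libraries lie above wild-type at the near ends of NDUFA7, at the end of NDUFB10 in SNHG9 and at the far site of NDUFA11, below at the far ends of NDUFA7, and overlap at the own end of NDUFB10.

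Other genes of the respiratory chain were taken from lists and stand here beside the members, and their counts are to be read against the 10.9% of all genes that rose and the 12.9% that fell. Of 18 tested assembly factors of complex I, 4 rose and 2 fell. Those that rose were NDUFAF5 (log2 change 1.53), which hydroxylates NDUFS7, NDUFAF2 (0.91), which acts late in assembly, NDUFAF3 (0.86), which acts early, and TMEM126B (0.74), of the membrane arm assembly complex. Those that fell, named after their values were seen, were TMEM261 (-0.74) and COA1 (-0.47). NDUFAF5 was low, at 4.003 ± 1.89 rpm in wild-type and 10.6 ± 1.24 in R749H cells, and the median log2 change of the genes within 5 Mb of it was 0.86. For the other genes named in this paragraph as past the test this median ran from -0.47 (ATP5A1) to 0.34 (ATP5E). Neither of 2 tested complex II subunits passed. In complex III 3 of 9 tested nuclear subunits rose, CYC1 (0.98), UQCRQ (0.65) and UQCRC1 (0.61), and in complex IV 5 of 9 rose, with COX7B (0.70) and COX8A (0.68) the largest. In complex V 3 of 17 rose and 3 fell, ATP5A1 by 4.47 on the log2 scale and ATP5G2 by 0.82, while ATP5E (1.01) and ATP5H (0.63) rose. Of 7 tested regulators of respiratory genes, TFAM, which packages mitochondrial DNA, had a log2 change of 1.29. YY1 had one of 0.87, and both passed the test. The list medians were 0.08 for the assembly factors, 0.34, 0.50 and 0.27 for complexes III, IV and V, and 0.30 for the regulators, beside 0.31 for the members and -0.07 for all genes.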

How the data were processed

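Polyadenylated RNA of 5 wild-type and 4 R749H samples, which the authors call biological replicates, was sequenced by 3' READS. After trimming, the authors kept at most 77 nt of a read for mapping to hg19 (GRCh37) with bowtie. The submitters' processing notes name Bowtie2 2.3.2, which the study's methods give for its eNETseq libraries. The authors then dropped reads without non-templated As, and placed each 3' end in the gene whose CCDS stop codon lay no more than 5 kb upstream. The deposited signal values are reads per isoform after the authors' scaling of every replicate to 7 M reads (pooled replicates, 25 M). Division by the smallest step of a library gave whole reads for 99.997 to 100% of its values, within 0.0051. The pooled values equalled the replicate sums and were not used further. The eNETseq libraries of the study are not analysed here.

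Reads were summed per gene, scaled with TMM factors and tested as log2 reads per M (rpm) with a prior count of 0.5 by limma 3.58.1 (trend) after filterByExpr, in R 4.3.3. Shares were tested by limma as log2 odds, for genes with 2 or more major isoforms and 20 or more reads per library on average. Benjamini-Hochberg adjustment covered all features tested, and the threshold was 0.05. Nearby genes are those within 5 Mb. Annotation was GENCODE v44lift37. The members and lists were chosen with earlier results of these data known. By rule, values in every library are given for members past the threshold, and also named are the 3 highest and lowest in level, the 3 nearest and most distant in 3' end, and at most 4 genes per other list. NDUFV1, NDUFS1, NDUFA5, NDUFB9, NDUFB11, NDUFA11 and the remaining members were named outside this rule. Alternatives included edgeR 4.0.16 and DESeq2 1.42.0 on the recovered reads. Only 3' ends in exons of the gene was an alternative chosen after seeing the data. SDs describe the spread between libraries, and p-values set the difference between the groups against the spread between libraries within them.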

Additional observations from a re-analysis of the deposited data

Results flagged for a closer look

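In 90 groups of 4 or 5 libraries, 6 values lay far from the rest of their group by Dixon's criterion, which chance exceeds in about 1 of 20 groups. NDUFA12 was read at 50.9 rpm in wild-type replicate 3 and at 89.4 to 96.5 in the other 4. NDUFA10 was read at 84.6 in R749H replicate 3 and at 122 to 128 in the others. NDUFB10, with the reads that end in SNHG9 counted, was at 472 in wild-type replicate 1 and at 623 to 669 in the others. Its rise was called under all 20 alternatives, including the one without that library. NDUFS5 was at 98.0 in R749H replicate 1 and at 164 to 168 in the others. NDUFA4 was at 30.8 in wild-type replicate 1 and at 4.21 to 7.54 in the others. The downstream share of NDUFB4 was 0.206% in R749H replicate 1 and 0 in the others. NDUFA12, NDUFA10, NDUFS5 and NDUFA4 passed the expression test under none of the 20 alternatives.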

How the results depend on the processing

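NDUFB10 and NDUFA6 passed the expression test under all 20 alternatives, NDUFB1 under 19 (lost with the authors' scaling) and NDUFV2 under 19 (lost with nearby genes subtracted). For NDUFB10, every alternative but the count over exons of the gene included the reads that end in SNHG9. That count gave its highest adjusted p (limma, 0.0344). The members' median log2 change minus that of all genes, 0.38, moved by less than the spread between libraries under every alternative. Members higher in R749H numbered 11 with DESeq2 and 2 with the authors' scaling, where 3 were lower, and 3 to 9 with each library left out in turn, with 1 lower each time. With nearby genes subtracted none was lower. Genes passing for the downstream share numbered 1 with division at the midpoint, 1 with a mean of at least 50 reads, and 0 to 2 with each library left out. Isoform shares passing numbered 2 for sites within 24 nt and 2 with a mean of at least 50 reads. The causes of these shifts were not tested. No member passed for shares under any alternative. Same-numbered libraries did not deviate together (r from -0.07 to 0.05), which does not show whether they were prepared together. With replicates 1 to 4 as a block, 7 members were higher, 1 was lower, and no gene passed for the downstream share. Without R749H replicate 3, 35 members had a positive change. Counting 3' ends listed under 1 gene name only changed nothing to recompute, since every 3' end is listed under 1 gene. Depth limits the members under 10 rpm, NDUFB5, NDUFB6, NDUFC1, NDUFS1 and NDUFA1, whose log2 changes had SEs from 0.31 to 0.44.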
